A study of Mus musculus with 8 samples.

Results

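Metallothioneins and zinc transporters are described here by 10 genes, taken by symbol from the 21899 genes of the deposited table. They are the metallothionein genes Mt1 and Mt2, the metal-sensing transcription factor gene Mtf1, the ZnT genes Slc30a1, Slc30a4, Slc30a5 and Slc30a7, and the ZIP genes Slc39a6, Slc39a10 and Slc39a14. Enough reads for testing were found for 9 of the 10, all but Mt2. RNA was sequenced from mesenchymal stem cells cultured from mouse femoral bone marrow, the adherent stromal cells that can form bone, fat and cartilage. The EA group was given 10 µM ellagic acid, a plant polyphenol, for 48 h, and the Control group was given DMSO, its solvent, for the same time. Each group had 4 poly(A) libraries, and the labels name no strain, age, sex, passage or zinc content of the medium. Nor do they tie a library to an animal or culture of its own, and the p-values therefore reflect the spread among 4 libraries a group, which may be technical.

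Zinc is held in cells in a bound form, and metallothioneins are small cysteine-rich proteins that bind it together with copper and cadmium. ZnT proteins carry zinc out of the cytosol, across the plasma membrane or into vesicles and the Golgi, whereas ZIP proteins carry it into the cytosol. MTF-1, the product of Mtf1, is the zinc sensor of this system. When zinc rises, it binds metal response elements in promoters. In mouse cells it is known to activate Mt1, Mt2 and Slc30a1 and to repress Slc39a10. Mt1 and Mt2 also respond to glucocorticoids, oxidants and heavy metals.

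The promoters of the textbook MTF-1 targets Mt1, Mt2 and Slc30a1 are given first, because these genes are read together in the results, and that of Slc30a4, because it had the largest fall among the members. Each window runs from 250 bases before to 50 bases after a RefSeq start site, 5′ to 3′ on the gene's strand, in build GRCm38.p6. Capitals mark matches to the core of the metal response element, searched as TGCACNC and TGCGCNC on both strands (GNGTGCA and GNGCGCA on the other strand).
Mt1, chr8:94178839-94179138, + strand: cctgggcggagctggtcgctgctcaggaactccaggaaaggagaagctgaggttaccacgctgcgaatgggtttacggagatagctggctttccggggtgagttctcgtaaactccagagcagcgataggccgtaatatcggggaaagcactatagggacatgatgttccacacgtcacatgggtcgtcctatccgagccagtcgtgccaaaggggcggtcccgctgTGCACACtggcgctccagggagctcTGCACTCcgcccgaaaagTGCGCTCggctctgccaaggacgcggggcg
Mt2, chr8:94172368-94172667, + strand: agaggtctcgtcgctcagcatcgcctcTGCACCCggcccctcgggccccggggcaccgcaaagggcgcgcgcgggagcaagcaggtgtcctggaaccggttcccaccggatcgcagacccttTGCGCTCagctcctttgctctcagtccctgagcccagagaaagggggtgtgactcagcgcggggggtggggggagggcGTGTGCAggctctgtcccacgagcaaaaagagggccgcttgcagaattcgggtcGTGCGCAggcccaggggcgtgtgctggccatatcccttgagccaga
Slc30a1, chr1:191906531-191906830, + strand: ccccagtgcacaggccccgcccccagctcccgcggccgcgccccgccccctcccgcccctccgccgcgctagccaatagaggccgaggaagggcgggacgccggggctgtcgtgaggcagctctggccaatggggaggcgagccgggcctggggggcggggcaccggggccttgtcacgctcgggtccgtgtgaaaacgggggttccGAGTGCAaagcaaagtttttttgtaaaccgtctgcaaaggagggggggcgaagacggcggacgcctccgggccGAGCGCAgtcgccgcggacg
Slc30a4, chr2:122702614-122702913, - strand: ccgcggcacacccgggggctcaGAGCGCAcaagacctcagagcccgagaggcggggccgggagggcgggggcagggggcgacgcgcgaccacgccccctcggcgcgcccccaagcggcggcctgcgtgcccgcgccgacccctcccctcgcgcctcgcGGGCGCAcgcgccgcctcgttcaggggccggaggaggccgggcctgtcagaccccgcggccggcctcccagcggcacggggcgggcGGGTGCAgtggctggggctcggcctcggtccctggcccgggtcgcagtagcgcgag

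In GENCODE M21, which uses the same build, transcripts of Mt2 start 46 and 242 bases downstream of the RefSeq start. The first of these starts lies in the last few bases of the Mt2 window and the other beyond it. Nearly all of the window thus lies upstream of both. For Mt1, Slc30a1 and Slc30a4 the nearest GENCODE start lies within 14 bases of the RefSeq start. The last 25 bases of these 3 windows, unlike those of the Mt2 window, are part of a GENCODE transcript of the gene. Other GENCODE transcripts start 122 and 152 bases downstream for Mt1 and 475 bases downstream for Slc30a1. Those starts lie beyond the windows, and the bases between were not searched.

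The Mt1 window held 3 matches, at bases 228, 253 and 271, all on the gene's own strand. The Mt2 window held 4, the Slc30a1 window 2 and the Slc30a4 window 3. Among all 32851 promoter windows of this length, 25.7% held at least 1 match, 7.11% at least 2, 1.97% at least 3 and 0.517% at least 4. RefSeq windows were searched for 8 of the 10 members, not for Slc39a6 or Slc39a14. The windows of Mtf1, Slc30a7 and Slc39a10 held no match. For Slc39a10 a window was searched at each of its RefSeq starts, but neither window held a GENCODE start of the gene. The bases around the GENCODE starts of Slc39a10 were thus not searched, and the lack of a match says nothing about them. The core of the antioxidant response element, searched as TGACNNNGC and GCNNNGTCA, was found once each in the windows of Mt2, Slc30a1 and Slc30a5 and in 12.4% of all windows. No match to one motif overlapped a match to the other. These are letter matches in GC-rich windows (73.0% G or C for Slc30a1 and 81.7% for Slc30a4), and binding was not measured.

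EA was compared with Control to find transcripts that differed at 48 h. Among the members, Mt1 rose 8.71-fold, while Slc30a4 was 2.76-fold lower, Slc39a10 1.92-fold lower and Slc39a6 1.17-fold lower. Slc30a1, Slc30a7 and Slc39a14 had log2 fold changes of 0.47, 0.21 and 0.31, but the size and, for the last 2, the sign depended on how libraries were scaled. Mtf1 and Slc30a5 did not pass the test, and Mt2 was practically unread. In counts, 4 of the 9 tested members were called higher (33.1% of all tested genes were called higher) and 3 were called lower (34.2% of all tested genes). Calls rest on an adjusted p under 0.05 in edgeR's quasi-likelihood test over 11777 tested genes, of which 67.2% were called in either direction, so the count of called members is close to the background. The median log2 fold change was 0.14 over the 9 tested members and −0.02 over all tested genes.

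Library totals ranged from 14112519 to 17390200 reads. The scaling factors of TMM, which bring the bulk of genes to the same level in all libraries, were 0.878 to 0.885 for EA libraries and 1.13 to 1.14 for Control libraries. Without them the median log2 fold change of all genes moved by −0.36, so changes of about this size or less can change their call or sign with the scaling. Larger rises can lose their call too, as did the copper gene Atox1, at 0.56 with TMM factors and 0.19 without. Levels are given as CPM (reads of a gene scaled to the depth of its library) with TMM factors unless FPKM, the authors' value per gene length and library total, is named. Of 12 stromal markers 11 had enough reads to be tested, and only Thy1 had too few, with 7 reads in EA and 12 in Control. In CPM by library totals, summed stromal markers reached 3554 to 3741 in the EA libraries and 3444 to 3854 in the Control libraries. With TMM factors the same sum was 4050 to 4245 in EA libraries and 3050 to 3375 in Control libraries. Of the 11 tested stromal markers 5 were higher, among them Pdgfra by 4.59-fold and Pdgfrb by 2.74-fold, and 3 were lower, among them Ly6a by 2.82-fold. By library totals again, the sum of 6 endothelial markers was 0.974 to 1.25 in EA libraries and 1.48 to 2.40 in Control libraries. The sum of 8 haematopoietic markers was 52.0 to 56.2 in EA libraries and 67.0 to 84.3 in Control libraries. Nearly all of this sum was Lyz2, which was higher in EA, and Cd14, which was lower, while the pan-leukocyte gene Ptprc had 17 reads in EA and 16 in Control. The sum of 5 osteoblast markers was 33.8 to 47.4 in EA libraries and 12.9 to 23.0 in Control libraries, and of the 4 tested 3 were higher and 1 lower. The higher were Alpl by 31.5-fold (112 reads in EA and 4 in Control), Ibsp by 9.43-fold and Sp7 by 8.53-fold, and Dmp1 was lower by 1.35-fold. The sum of 6 adipocyte markers was 0.844 to 3.57 in EA libraries and 1.74 to 3.55 in Control libraries, and that of 4 erythroid markers 0.812 to 3.51 in EA libraries and 1.17 to 2.58 in Control libraries. None of the listed markers was at 0 in all 8 libraries. Their part in the results below was not tested, and in such bulk RNA fewer cells of a type and less RNA per cell cannot be told apart.

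**Figure D1:**
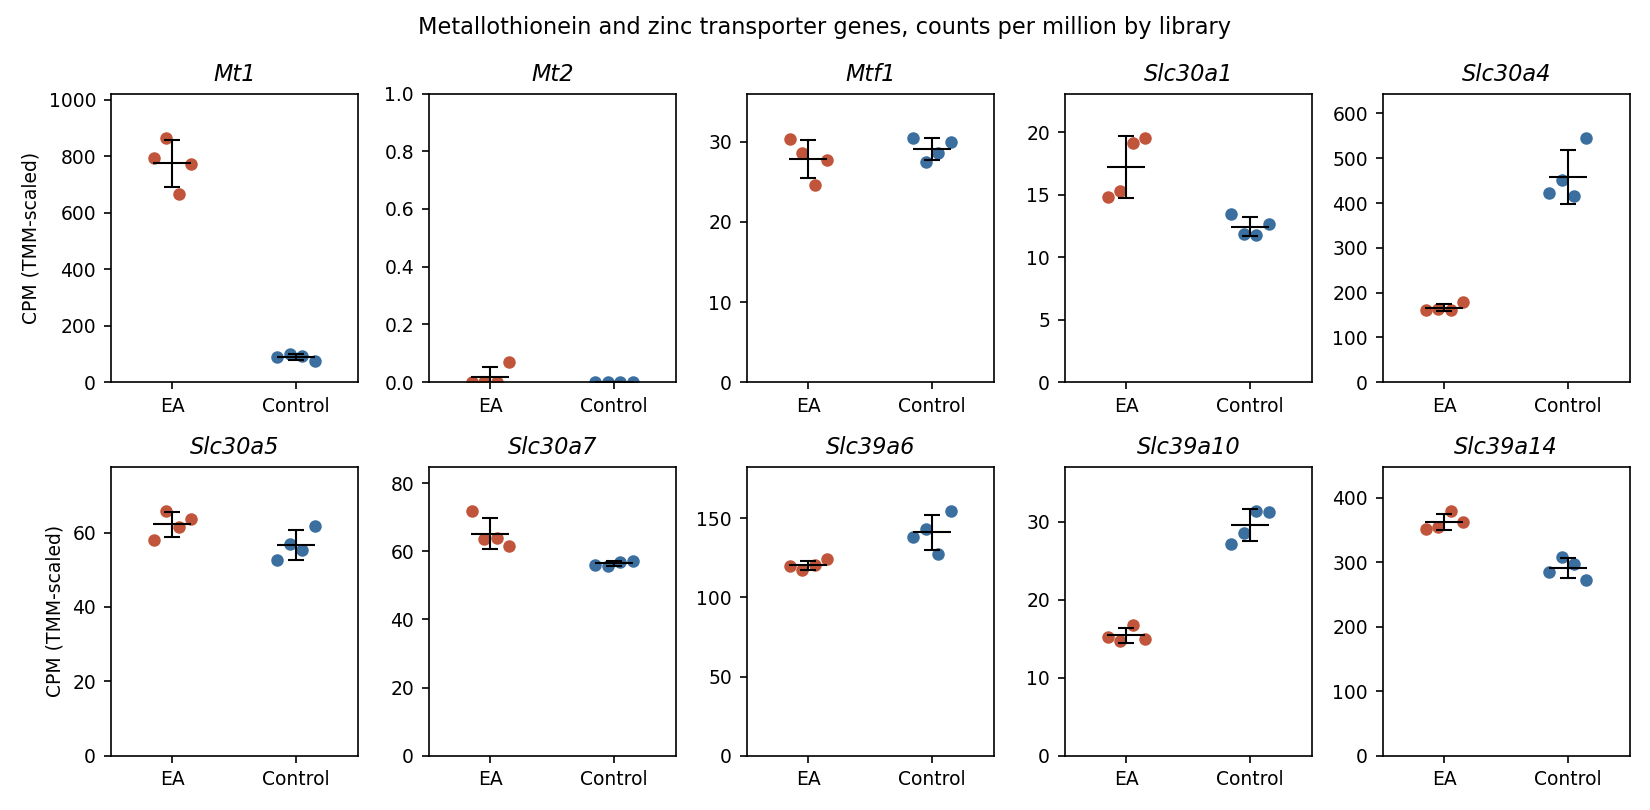
CPM with TMM scaling of the 10 members in each library, EA on the left and Control on the right. Points are libraries, long ticks are means and bars are SD (n = 4). Mt1 stood at 667 to 866 CPM in EA and 74.1 to 99.4 CPM in Control, and Slc30a4 at 161 to 179 CPM in EA and 415 to 546 CPM in Control.

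Mt1 (ENSMUSG00000031765, chromosome 8, 94905710 to 94906955, + strand, build GRCm39) encodes metallothionein 1. Its level was 794, 866, 667 and 771 CPM in EA libraries 1 to 4, against 88.4, 99.4, 94.0 and 74.1 CPM in Control libraries 1 to 4. All EA libraries lay far above all Control libraries, and EA library 3 was the lowest of its group. The mean was 774 ± 82.4 CPM in EA and 89.0 ± 10.9 CPM in Control (SD, n = 4 each), and the log2 fold change was 3.12 ± 0.10 (SE, adjusted p = 2.55e-13, edgeR). This was the 116th largest log2 fold change of the 11777 tested genes. The coefficient of variation was 10.6% in EA and 12.3% in Control. Mt1 took 0.0682 ± 0.00721% of all reads in EA and 0.0101 ± 0.00128% in Control. By FPKM it was the 49th most abundant tested gene in EA and the 450th in Control. The increase was called under each alternative that was run, with a log2 fold change of 3.05 to 3.19 when any 1 library was left out.

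Mt2 (ENSMUSG00000031762, chromosome 8, 94899292 to 94900196, + strand) encodes metallothionein 2 and lies next to Mt1 on the same strand. It had 1 read over the 4 EA libraries, in EA library 4, and 0 reads over the 4 Control libraries. Of 62228489 Control reads, a count of 0 allows a level of up to 0.0482 CPM by library totals (3 counts over the group, counting error only). In EA the 1 read of 62921005 gave 0.0159 CPM, with an exact 95% interval of 0.000402 to 0.0885. The same exact interval for Control reaches 0.0593 CPM, so a difference between the groups was not detectable. Mt1 had 48972 reads over the same 8 libraries. In the GENCODE M21 annotation of GRCm38, exons of Gm45774, a gene on the opposite strand, cover 432 of the 588 exonic bases of Mt2 (73.5%) and none of the exonic bases of Mt1. The strand setting of the authors' counting is not given in the sources used here, and without strand, reads of Mt2 and of its antisense partner cannot be told apart.

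Such overlap was set beside the counts of all genes that matched that annotation by gene ID, 21795 of 21899. Among 280 genes with over 90% of exonic bases shared with another gene, 252 had 0 or 1 read in all libraries together. The same held for 24.7% of 348 genes with over 50 to 90% shared, the class that holds Mt2. It also held for 9.78% of 5870 genes with up to 50% shared and 28.6% of 15297 genes with none shared. Slc39a7, the ZIP gene of the endoplasmic reticulum and Golgi, shares 80.7% of its exonic bases with Gm20427 on the same strand and had 108 reads in EA and 82 in Control. The part of shared exons in the count of Mt2 was not tested, so its level and its response are uncertain. Of the members that were tested, Slc30a7 had the largest shared part, at 16.0%, followed by Slc30a1 at 8.92%, Mtf1 at 8.09% and Slc30a4 at 2.37%. The other 5, Mt1, Slc30a5, Slc39a6, Slc39a10 and Slc39a14, had none.

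Mtf1 (ENSMUSG00000028890, chromosome 4) encodes the metal sensor MTF-1. It ranged from 24.6 to 30.3 CPM in EA and from 27.4 to 30.5 CPM in Control, so the groups overlapped. The means were 27.8 ± 2.38 CPM in EA and 29.1 ± 1.39 CPM in Control (SD, n = 4 each), with a log2 fold change of −0.07 ± 0.08 (SE, adjusted p = 0.481, edgeR). With library totals alone it was called lower, at −0.43 (adjusted p = 8.45e-05), and with upper-quartile factors at −0.22 (adjusted p = 0.0206). With library totals the median of all tested genes stood at −0.38, and no change of Mtf1 relative to the bulk of genes was detected.

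Slc30a4 encodes ZnT4, a carrier that moves zinc into endosomes, lysosomes and secretory vesicles and that is lost in the lethal milk mouse. The gene (ENSMUSG00000005802) lies on chromosome 2, 122523153 to 122544583, − strand. It stood at 161, 164, 161 and 179 CPM in EA libraries 1 to 4, against 423, 452, 415 and 546 CPM in Control libraries 1 to 4. The groups were far apart, and Control library 4 was the highest of its group. Means were 166 ± 8.40 CPM in EA and 459 ± 60.2 CPM in Control (SD, n = 4 each). The log2 fold change was −1.46 ± 0.08 (SE, adjusted p = 7.24e-12, edgeR), and −1.37 (adjusted p = 1.43e-18) without Control library 4.

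Slc30a1 encodes ZnT1, the zinc exporter of the plasma membrane (ENSMUSG00000037434, chromosome 1, 191638879 to 191645359, + strand). Its level was 14.8, 15.3, 19.1 and 19.6 CPM in EA libraries 1 to 4, against 13.5, 11.9, 11.8 and 12.6 CPM in Control libraries 1 to 4. The groups did not overlap, but EA libraries 1 and 2 lay close to the Control range while EA libraries 3 and 4 stood higher. The log2 fold change was 0.47 ± 0.11, or 1.38-fold (SE, adjusted p = 0.00101, edgeR). With library totals alone it was 0.11 (adjusted p = 0.390), and on log2(FPKM + 1) it was 0.07 (adjusted p = 0.443, limma). In FPKM the groups overlapped, with 2.49 to 3.27 for EA and 2.56 to 2.90 for Control.

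Slc30a5 and Slc30a7 encode ZnT5 and ZnT7, which load zinc into the early secretory pathway and Golgi. Slc30a7 ranged from 61.5 to 71.8 CPM in EA and from 55.6 to 57.3 CPM in Control, with a log2 fold change of 0.21 ± 0.06 (SE, adjusted p = 0.00799, edgeR). The groups did not overlap, and EA library 1 was the highest. With library totals alone this value reversed to −0.16 (adjusted p = 0.0341), and with upper-quartile factors it was 0.05 (adjusted p = 0.498). Slc30a5 ranged from 58.0 to 65.8 CPM in EA and from 52.5 to 61.9 CPM in Control, with overlap. Its log2 fold change of 0.14 ± 0.07 did not pass the test (SE, adjusted p = 0.0866, edgeR). It passed without Control library 4, at 0.18 (adjusted p = 0.0162), and it was called lower with library totals alone, at −0.23 (adjusted p = 0.00472).

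Slc39a10 encodes ZIP10, a zinc importer of the plasma membrane (ENSMUSG00000025986, chromosome 1, 46846704 to 46932012, − strand). It stood at 15.2, 14.6, 16.8 and 15.0 CPM in EA libraries 1 to 4, against 27.1, 28.5, 31.4 and 31.3 CPM in Control libraries 1 to 4. Every EA library was below every Control library. The mean was 15.4 ± 0.940 CPM in EA and 29.6 ± 2.10 CPM in Control (SD, n = 4 each), and the log2 fold change was −0.94 ± 0.09 (SE, adjusted p = 1.12e-08, edgeR).

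Slc39a6 encodes ZIP6, which forms a complex with ZIP10 (ENSMUSG00000024270, chromosome 18). Its level was 120, 117, 120 and 124 CPM in EA libraries 1 to 4, against 138, 143, 128 and 155 CPM in Control libraries 1 to 4. The EA libraries lay close together just below the lowest Control library, and the Control libraries spread more widely. The log2 fold change was −0.23 ± 0.06 (SE, adjusted p = 0.00262, edgeR), and −0.59 with library totals alone. Slc39a14 encodes ZIP14, an importer of zinc, manganese and iron. It had 352, 356, 380 and 362 CPM in EA libraries 1 to 4, against 286, 309, 298 and 273 CPM in Control libraries 1 to 4. On this scale the groups did not overlap, and the log2 fold change was 0.31 ± 0.05 (SE, adjusted p = 3.42e-05, edgeR). In FPKM they did, with 29.4 to 31.8 for EA and 29.2 to 33.2 for Control, and with library totals alone the log2 fold change reversed to −0.05 (adjusted p = 0.425). No direction can therefore be given for ZIP14 apart from the scaling.

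Groups did not overlap in CPM for 7 of the 9 tested members, against 60.6% of all tested genes. In 4 of them all EA libraries were higher (29.9% of all tested genes) and in 3 all were lower (30.7% of all tested genes). The calls of Mt1, Slc30a4, Slc39a6 and Slc39a10 were made, in the same direction, under each alternative that was run.

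**Figure D2:**
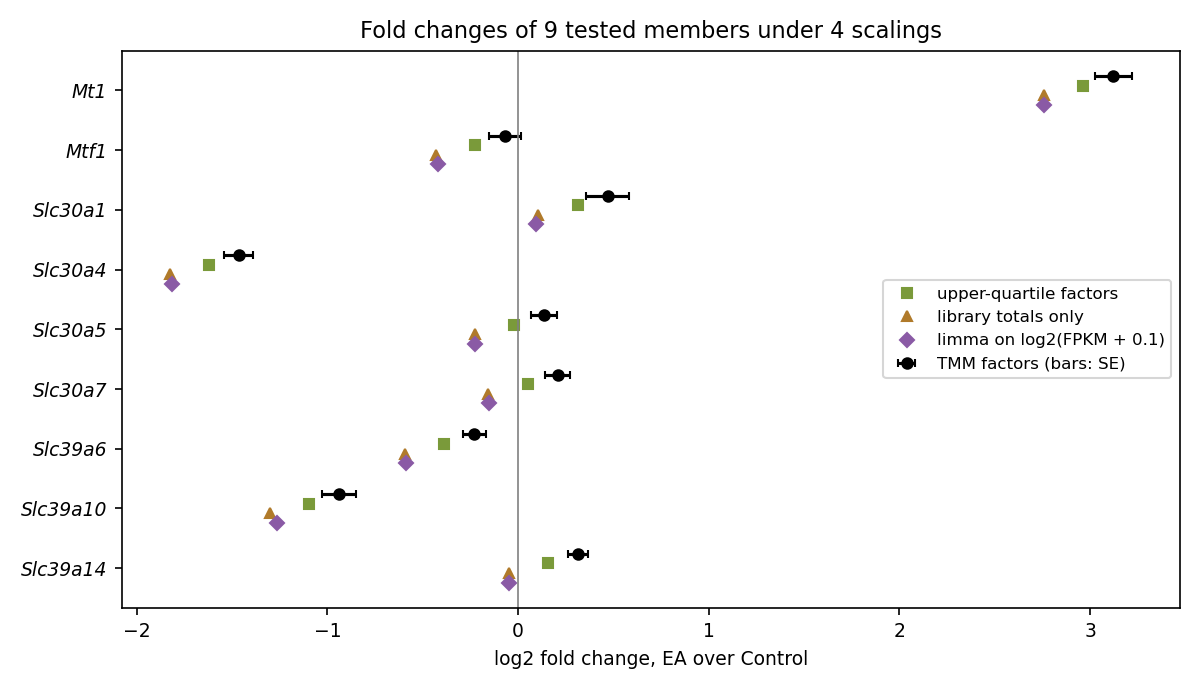
Log2 fold change of EA over Control for 9 tested members under 4 ways of scaling, with the SE for TMM. Mt1 lies right of 0 and Slc30a4, Slc39a10 and Slc39a6 lie left of 0 under all 4, while Slc30a5, Slc30a7 and Slc39a14 cross 0.

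Ratios of reads within a library do not depend on scaling between libraries, and they are given as a description. Per read of Slc30a1, the libraries held 53.6, 56.6, 34.9 and 39.4 reads of Mt1 in EA and 6.56, 8.39, 7.96 and 5.86 in Control. Mt1 was thus 6.41-fold higher relative to Slc30a1 in EA. Per read of Slc39a10, the libraries held 0.974, 1.05, 1.14 and 1.30 reads of Slc30a1 in EA and 0.497, 0.416, 0.377 and 0.404 in Control. This ratio of reads of the ZnT1 gene to reads of the ZIP10 gene was higher in every EA library than in every Control library, by 2.64-fold in the mean. Slc39a10 had 0.0425 ± 0.00144 reads per read of Slc39a14 in EA and 0.102 ± 0.0102 in Control. Slc30a4 had 2.57 ± 0.272 reads per read of Slc30a7 in EA and 8.13 ± 0.997 in Control (SD, n = 4 each).

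In levels per gene length, the order of the members differed between the groups. In EA the order by mean FPKM was Mt1 at 548 ± 57.8, Slc39a14 at 30.3 ± 1.08, Slc30a4 at 26.8 ± 1.27 and Slc39a6 at 26.0 ± 0.543, and the ranges of Slc30a4 and Slc39a6 overlapped. In Control the order was Slc30a4 at 94.9 ± 12.1, Mt1 at 81.0 ± 10.2, Slc39a6 at 39.2 ± 2.92 and Slc39a14 at 31.3 ± 1.78 (SD, n = 4 each), and the ranges of Slc30a4 and Mt1 overlapped. The lower places in EA were Slc30a5 at 7.52, Slc30a7 at 5.17, Slc30a1 at 2.89, Mtf1 at 2.75 and Slc39a10 at 2.23, with Slc30a1 and Mtf1 overlapping. In Control they were Slc30a5 at 8.80, Slc30a7 at 5.75, Slc39a10 at 5.50, Mtf1 at 3.71 and Slc30a1 at 2.69, with Slc30a7 and Slc39a10 overlapping. Slc39a10 was thus the lowest of the 9 in EA, a place that Slc30a1 held in Control. The length used by the authors for Mt1, 1246 bases, equals the whole span of the gene, and a shorter length would raise its FPKM in both groups alike.

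**Figure D3:**
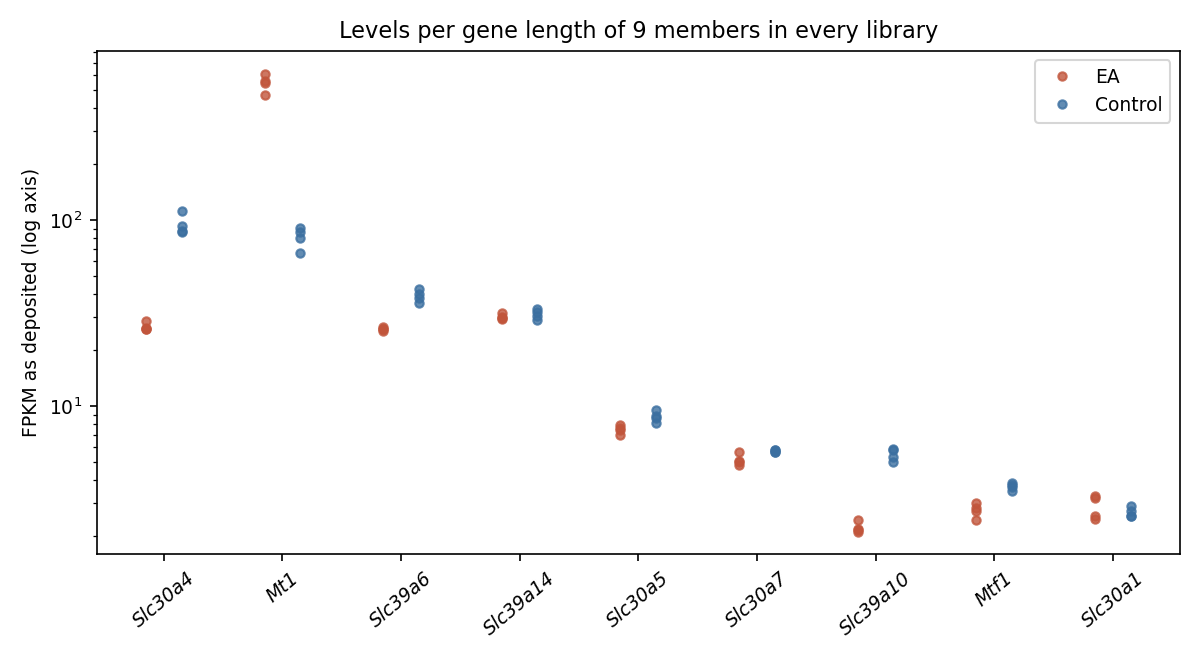
Deposited FPKM of 9 members in every library on a log axis, ordered by the Control mean, with EA points left of Control points. Mt1 reached 473 to 613 in EA libraries and 67.0 to 90.5 in Control libraries, and Slc30a4 reached 25.9 to 28.6 in EA libraries and 86.5 to 112 in Control libraries.

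The make-up of each carrier family within a library is also free of scaling between libraries. Of the summed FPKM of the 10 ZnT genes, Slc30a4 held 49.0 ± 1.46% in EA and 73.9 ± 1.74% in Control (SD, n = 4 each). The sum itself was 54.6 ± 0.941 FPKM in EA and 128 ± 13.1 FPKM in Control, values that do depend on the scaling to library totals. As the share of Slc30a4 was smaller, the shares of Slc30a1, Slc30a5, Slc30a6, Slc30a7 and Slc30a9 were larger, among them Slc30a1 with 5.29 ± 0.709% in EA and 2.11 ± 0.241% in Control. Of the 14 ZIP genes, Slc39a1, a plasma membrane importer outside the members, held the largest share in both groups, at 34.4 ± 0.787% in EA and 36.9 ± 2.13% in Control. This is the order by the counts as deposited. The count of Slc39a7, with 80.7% of its exonic bases shared with another gene, is uncertain, and its effect on the ZIP shares was not tested. Slc39a14 held 21.0 ± 0.420% in EA and 16.8 ± 0.799% in Control, and Slc39a10 1.55 ± 0.0695% in EA and 2.96 ± 0.281% in Control. Slc39a6 held 17.6 to 18.3% in EA and 19.1 to 23.9% in Control, so its share was lower in all EA libraries.

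**Figure D4:**
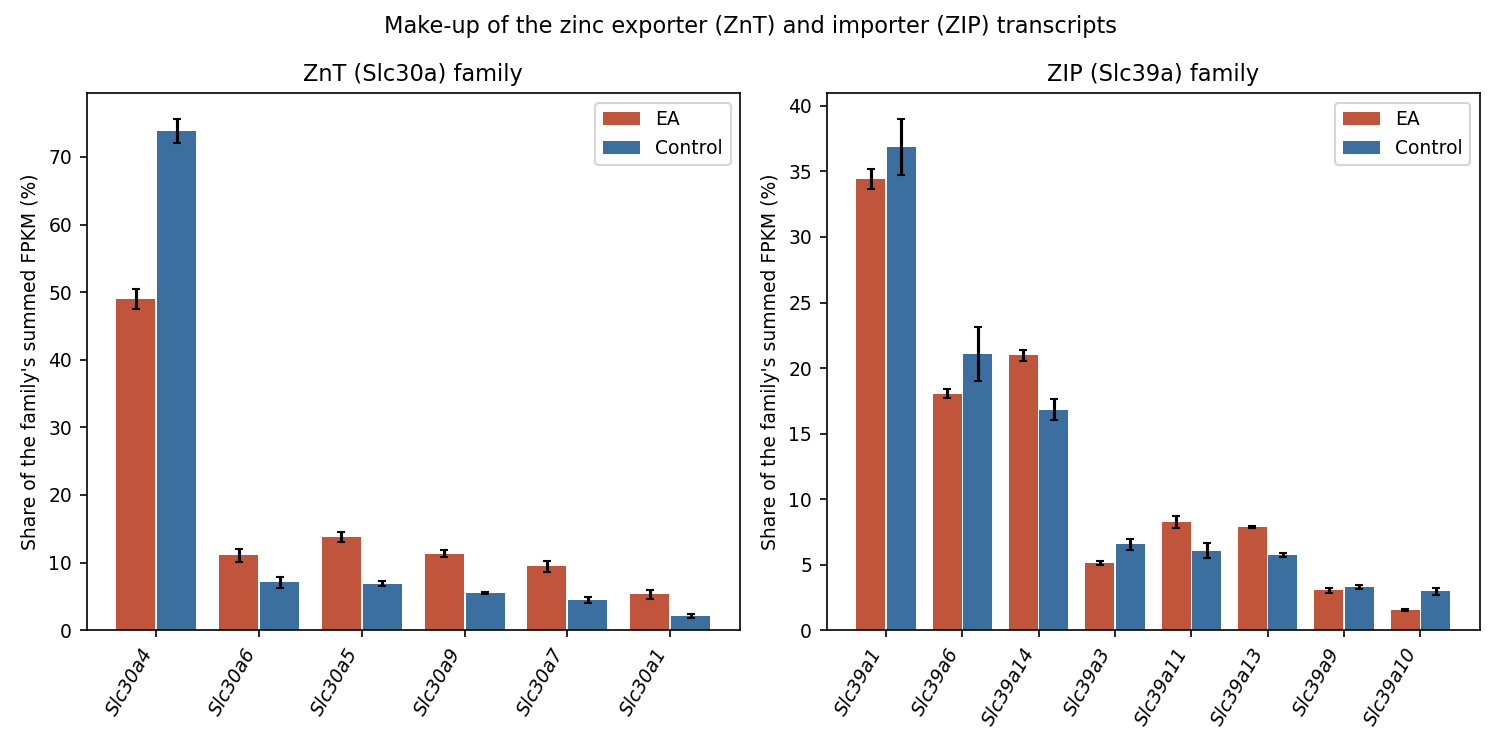
Mean share of the family's summed FPKM for ZnT genes (left) and ZIP genes (right) with a mean share over 1% in Control. Bars are means with SD (n = 4), EA left of Control. Slc30a4 held 49.0% of the ZnT sum in EA and 73.9% in Control, while the ZIP shares differed by less.

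Other genes of metal handling were read from lists. Of 6 other ZnT genes, 2 were tested. Slc30a6, the partner of ZnT5, was lower at 21.1 ± 1.51 CPM in EA and 24.5 ± 1.36 CPM in Control (log2 fold change −0.21), and Slc30a9 was higher at 86.9 ± 2.91 CPM in EA and 77.0 ± 6.80 CPM in Control (0.17). Both calls were weak. That of Slc30a6 was lost when Control library 1, 3 or 4 or EA library 2, 3 or 4 was left out (−0.22 to −0.18), and without a filter on low counts (−0.22, adjusted p = 0.0507, edgeR). That of Slc30a9 was lost without Control library 1 or 3 or EA library 2 or 3 (0.15 to 0.17), and its value reversed to −0.19 with library totals alone. Of 11 other ZIP genes 6 were tested, with 3 higher, 1 lower and a median log2 fold change of 0.16, a count to be read against the 67.2% of all tested genes called in either direction. Slc39a13, a Golgi and vesicle carrier needed for connective tissue, stood at 62.4 ± 1.74 CPM in EA and 45.8 ± 2.52 CPM in Control, with a log2 fold change of 0.45. Slc39a11 was higher by 0.43 and the thinly read Slc39a7 by 0.73, and none of these 3 was called with library totals alone. The call of Slc39a7 was also lost without Control library 1 (0.67), Control library 3 (0.68) or EA library 4 (0.59). Slc39a3 was lower by −0.36 on the log2 scale, at 33.7 ± 0.802 CPM in EA and 43.3 ± 3.62 CPM in Control. The metallothionein genes Mt3 and Mt4 had 1 and 0 reads over all libraries.

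Of 7 further reported MTF-1 targets, 5 were higher and 2 lower, with a median log2 fold change of 0.93 (33.1% of all tested genes were higher and 34.2% lower, with a median of −0.02). The median is the value of Slc40a1, the gene of the iron exporter ferroportin, which had 121 reads in EA and 81 in Control and whose groups overlapped. Gclc, which encodes the catalytic subunit of glutamate-cysteine ligase, was higher by 2.43 on the log2 scale, and Csrp1, a LIM domain protein gene, stood at 766 ± 50.7 CPM in EA and 232 ± 23.5 CPM in Control (1.72). Pgf, a growth factor of the VEGF family, was higher by 1.44 at 2.23 ± 0.408 CPM in EA and 0.814 ± 0.331 CPM in Control. Selenow was called higher by only 0.17, at 131 ± 6.67 CPM in EA and 116 ± 4.46 CPM in Control. In FPKM its order was the opposite, with 146 to 163 in EA and 168 to 187 in Control, so its direction depends on the scaling. Ndrg1 and the selenoprotein gene Selenoh had log2 fold changes of −0.49 and −0.65. Many of these genes have other known regulators.

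Of 11 tested genes of copper handling, 3 were higher and 4 lower, close to the 67.2% of all tested genes called in either direction, with a median log2 fold change of −0.01. The metalloreductase gene Steap4 stood at 7.67 ± 1.07 CPM in EA and 37.4 ± 7.26 CPM in Control (−2.28). Slc31a2, which encodes the copper carrier CTR2, had 15.1 ± 0.907 CPM in EA and 28.0 ± 4.56 CPM in Control (−0.89), and Steap3 had a log2 fold change of −0.98. Higher values were found for the copper chaperone gene Atox1 (0.56), Cp, the gene of the copper oxidase ceruloplasmin (0.45), and the copper importer gene Slc31a1 (0.20), but with library totals alone Atox1 and Cp were not called and Slc31a1 reversed to −0.17. Without EA library 1, Slc31a1 was not called (0.16).

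Of 8 carriers of manganese and other divalent cations, 3 were higher and 3 lower (33.1% and 34.2% of all tested genes), with a median of −0.01. Slc11a2, the iron and manganese importer DMT1, stood at 95.2 ± 7.48 CPM in EA and 206 ± 12.5 CPM in Control (−1.11). Cnnm4, which encodes a protein of magnesium efflux, had 64.3 ± 9.38 CPM in EA and 20.4 ± 1.06 CPM in Control (1.66), and its relative Cnnm2 35.8 ± 0.982 CPM in EA and 68.0 ± 2.49 CPM in Control (−0.92). Atp2c1, a Golgi pump for calcium and manganese, was higher by 0.53, but it was not called on log2(FPKM + 1) (0.16, adjusted p = 0.0547, limma). Slc41a1, a magnesium carrier gene, had a log2 fold change of −0.55. The channel gene Trpm7 was higher by 0.17 and reversed to −0.19 with library totals alone. Its call was lost without Control library 1 or 2 or EA library 2 or 3 (0.12 to 0.17).

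The genes whose profile over the 8 libraries was most like that of Mt1 were Septin9, Ehd3, Lrrc75b, Spsb1 and Thbs1, in this order. Likeness was the Euclidean distance between log2 CPM profiles centred on each gene's mean, and it was 0.272 for Septin9 and 0.377 to 0.411 for the other 4. The measure is set mainly by the size of the difference between EA and Control, which was 3.08 for Septin9 and 2.97 to 3.17 for the other 4 on the log2 scale. Septin9, a cytoskeletal GTPase gene, stood at 985 CPM in EA and 116 CPM in Control.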

How the data were processed

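Read counts per gene and FPKM were deposited by the authors in 1 table of 21899 genes and 8 libraries. The submitters' processing notes name cutadapt 1.15, HISAT2 2.0.5 and build GRCm39. Not given in the sources used here are the read counter, whether it used strand, and the release of the annotation. The deposited FPKM equal each count divided by the table's gene length and the column total, with a largest relative deviation of 5.10e-15 over the 117047 values above 0. The table's lengths of all 10 members equal their merged exons in GENCODE M21.

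The deposited counts were tested with edgeR 4.0.16 (R 4.3.3). Low counts were removed by its default filter, libraries were scaled by TMM, and EA was set against Control in the robust quasi-likelihood test with no covariate. Benjamini-Hochberg adjustment ran over 11777 genes. The biological coefficient of variation was 7.78%. SEs were derived from the F statistic and so share information across genes. No 2 libraries of a group agreed within counting noise (chi-square per degree of freedom 2.79 to 16.7). The steps were tested on simulated counts. These had far fewer changed genes than the data, with rises and falls equally likely, so they do not test the scaling between libraries.

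Members and lists were chosen with earlier results of these data known. All 10 members are described. Other genes were named as up to 3 higher and 3 lower called genes of each list by p, and as the 5 profiles nearest to Mt1 among genes whose log2 CPM averaged 1 or more (prior count 2). Mt2 had too few reads for this. Lyz2, Cd14, Ptprc, Thy1, Pdgfra, Pdgfrb, Ly6a, Alpl, Ibsp, Sp7, Dmp1, Slc40a1, Selenow, Slc39a1, Mt3 and Mt4 were named after their values were seen. Promoters are from RefSeq (GRCm38.p6). Alternatives were other scaling factors, filters and thresholds, DESeq2 1.42.0, limma 3.58.1 on voom weights and on log2 FPKM, a replicate block and leaving out each library. Figures were drawn with matplotlib 3.10.9.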

Additional observations from a re-analysis of the deposited data

Results flagged for a closer look

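Slc30a4 in EA library 4 stood at 179 CPM, apart from the other 3 EA libraries, which lay within 161 to 164 CPM. Its gap to the nearest library was 0.844 of the range of the group, above Dixon's 95% critical value for 4 samples. This was 1 of 18 groups examined, and chance flags about 1 in 20 groups. Even this library lay far below the lowest Control library, at 415 CPM.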

How the results depend on the processing

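Scaling was the choice that moved these results most. Over all tested genes the median log2 fold change moved by −0.16 with upper-quartile factors, −0.36 with library totals, −0.26 on log2(FPKM + 1) and −0.35 on log2(FPKM + 0.1). With library totals, 1940 genes were higher and 7196 lower, and 1 member was higher and 6 lower. On log2(FPKM + 1), 1920 genes were higher and 7160 lower, and on log2(FPKM + 0.1), 1923 higher and 7167 lower, with 1 member higher and 5 lower on both. Higher calls made up 49.2% of calls with TMM factors, 34.6% with upper-quartile factors, 21.2% with library totals and 21.1% to 21.2% on FPKM. The following log2 fold changes reversed with library totals, on log2(FPKM + 1) and on log2(FPKM + 0.1), in this order: Slc30a5 at −0.23, −0.20 and −0.22 (and −0.0212 with upper-quartile factors), Slc30a7 at −0.16, −0.13 and −0.15, Slc39a14 at −0.0484, −0.0459 and −0.0472, Slc30a9 at −0.19, −0.16 and −0.18, Slc31a1 at −0.17, −0.16 and −0.17, and Trpm7 at −0.19, −0.17 and −0.18. The shift of all genes is built into these settings.

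The 9 members kept direction and call with RLE factors, without a filter, with CPM above 1 in all libraries, with DESeq2 and with limma voom. The same 7 members were called at an adjusted p under 0.01, as were 3338 genes higher and 3401 lower of 11777. Leaving out 1 library gave 4 to 5 members higher and 3 lower, 3721 to 4012 genes higher and 3794 to 3957 lower. The replicate numbers did not pair the libraries (correlations of deviations −0.0215 to 0.0266), and with a replicate block 4 members were higher and 3 lower, among 3834 genes higher and 3960 lower. Few reads limit Mt2, Slc39a7, Slc40a1 and Pgf. Counting intervals cover counting error only.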
